A study of Mus musculus with 5 samples.

Results

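Interleukins are secreted messengers of the immune system, and each acts on cells that carry its receptor. Most receptors pair a cytokine-specific chain with a chain shared by several cytokines, and signal through Jak kinases and Stat factors, or, for the interleukin-1 family, through Myd88. In the thymus these genes switch with stage: interleukin-7 receptor and the interleukin-2 receptor alpha chain (CD25) mark early, CD4 and CD8 double-negative thymocytes, and double-positive (DP) thymocytes, which carry both CD4 and CD8, have little of either. Trimethylation of lysine 4 of histone H3 (H3K4me3) marks promoters of active or poised genes. Cxxc1 (CXXC finger protein 1) binds unmethylated CpG and recruits the Setd1 complexes that place this mark.

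The genes described here are the 80 interleukin and interleukin receptor genes among 21410 autosomal protein-coding genes: those whose symbol starts with Il and a number. By symbol, 40 were ligand genes and 37 were receptor genes (an r straight after the number, and Il6st, the shared chain gp130), and Il1rn, Il18bp and Il4i1 were in neither class. Il1rn and Il18bp encode antagonists and Il4i1 an amino acid oxidase. Apart from Il6st, all other members were classed by symbol alone, whatever the function of their product. Another 5 genes of the same pattern, Il2rg, Il13ra1, Il13ra2, Il1rapl1 and Il1rapl2, are on the X chromosome and were not members. None of these 5 had a window in any list near a transcription start site (TSS), within 1 kb.

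The study asked where Cxxc1 binds in DP thymocytes and how H3K4me3 differs without it. WT mice carried floxed Cxxc1 alleles (Cxxc1 fl/fl), with exons 4 and 5 between loxP sites, and Cxxc1-deficient mice carried the same alleles with Cre driven by the human CD2 promoter (Cxxc1 fl/fl hCD2Cre), which is active from early thymocyte stages and in other lymphoid cells. All mice were of about weaning age and backcrossed to C57BL/6, and no treatment is labelled. The Cxxc1-deficient thymus holds far fewer DP thymocytes than the WT thymus. Each of the 5 samples is 1 library, and 3 have a file here: Cxxc1 ChIP, taken as WT from the study's methods because its file carries no genotype, WT H3K4me3 and Cxxc1-deficient H3K4me3. Sample titles name the deficient cells KO while their genotype field reads Cxxc1+/-, and the titles were followed. With 1 library for each list there is no replicate error, no test between genotypes and no p-value. Intervals are 95% Wilson intervals for shares of genes and exact 95% Poisson intervals for tags. They cover counting error only, and neighbouring genes are not independent.

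Values are tags per 1000000 mapped tags (RPM) in 200-bp windows, which are listed only inside enriched regions. A gene without a window therefore has an unknown signal, not a signal of 0, and is called not listed. The controls used to call each H3K4me3 list are not stated, which limits every comparison of windows between genotypes. Joining windows across gaps of at most 2 gave 14237 WT H3K4me3 peaks, 2979 Cxxc1-deficient H3K4me3 peaks and 4352 Cxxc1 peaks. The steps between values placed the depth between 9.42 and 9.47 M tags for both H3K4me3 libraries and between 9.10 and 9.14 M tags for Cxxc1, where 1 tag is about 0.11 RPM. At the targeted gene, promoter windows of Cxxc1 itself summed to 2.7 RPM in WT and none was listed in Cxxc1-deficient cells. This does not check the deletion, because only 12.8% of all genes with a WT promoter window also had a Cxxc1-deficient one. In the Cxxc1 list, the Cxxc1 gene body plus 10 kb upstream held 64.7 RPM, the highest value of all autosomal protein-coding genes. The cause of this high value was not tested. Of 15 autosomal DP thymocyte markers, 9 had a WT and 5 a Cxxc1-deficient promoter window. At promoters, Cd8a, Cd8b1, Cd3e and Lck were listed in WT, whereas Rag1, Rag2, Cd4 and Themis were not, so the lists show the labelled cell type only in part. Rag1 had a promoter window in Cxxc1-deficient cells alone, of 0.7 RPM. Cd4 had 2.2 RPM in WT over its gene body plus 10 kb upstream. Promoter windows of other cell types were found in WT at 2 of 7 B cell, 0 of 8 myeloid, 0 of 5 NK or innate lymphoid, 1 of 6 erythroid and 1 of 7 thymic stroma markers, with sums of 0 to 1.7 RPM, and in Cxxc1-deficient cells at none of these 33.

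In WT DP thymocytes the receptor genes carried H3K4me3 more often than the ligand genes. Promoter windows, within 1 kb of a TSS, were listed for 12 of 37 receptor genes (32.4%, interval 19.6 to 48.5) and for 4 of 40 ligand genes (10%, 3.96 to 23.1), and for Il18bp and Il4i1. The intervals of receptor and ligand genes overlap. Over all 80 genes the share was 18 (22.5%, 14.7 to 32.8), against 32.5% of all autosomal protein-coding genes. Receptor genes were thus near the background and ligand genes below it. In the gene body plus 10 kb upstream, WT windows were listed for 18 receptor genes (48.6%, 33.4 to 64.1) and 9 ligand genes (22.5%, 12.3 to 37.5), 29 of 80 in all (36.2%) against 43.3% of all genes. Without the 10 kb upstream, 17 receptor and 3 ligand genes had a WT window, and 39.0% of all genes. The receptor genes were longer, with a median region of 39.1 kb against 16.5 kb for ligand genes and 25.5 kb for all genes. Per Mb of these regions there were 189 WT windows in receptor genes, 54.6 in ligand genes and 89.7 in all genes. Few genes weigh heavily on the pooled receptor value. Of its 324 windows, Il4ra held 49, Il12rb1 34, Il21r 30 and Il11ra1 27, and a window shared by 2 regions counted for each. No window of any list was found in 28 ligand genes (70%), in 14 receptor genes (37.8%) and in 50% of all genes. In these bulk samples, fewer marked cells and less mark in each cell cannot be told apart.

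**Figure D1:**
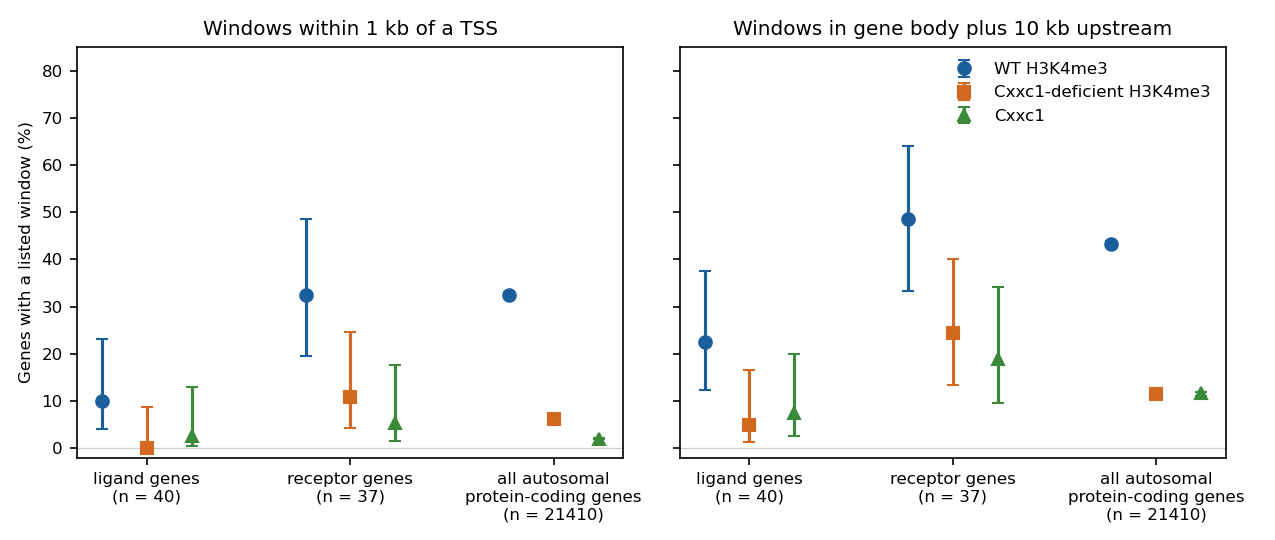
Percentage of genes with a listed window (y axis) within 1 kb of a TSS (left) and in the gene body plus 10 kb upstream (right), for 40 ligand genes, 37 receptor genes and 21410 genes in all; points are shares in the 3 lists and bars are 95% Wilson intervals. WT H3K4me3 was listed at 32.4% of receptor and 10% of ligand promoters, and each list had a higher share in receptor than in ligand genes, with intervals that overlap.

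The WT promoter values of the receptor genes mostly lay higher, with overlap. Their median was 2.45 RPM over 12 genes, against 0.85 RPM over 4 ligand genes and 2.4 RPM over the 6950 listed genes. The highest of the 18 was Il3ra (alpha chain of the interleukin-3 receptor), at 5.5 RPM or 52 tags (38.8 to 68.2), above 98.5% of listed genes. Next came Il4ra at 3.1 RPM, Il27ra at 3.0, Il17ra at 2.9, and Il6ra and Il9r at 2.7 RPM. These 5 stood between 25 and 29 tags, and their counting intervals overlap, so their order is not resolved. Il10rb and Il17re had 2.2 RPM each. Il2rb, the beta chain shared by the interleukin-2 and interleukin-15 receptors, had 1.7 RPM, and Il12rb1, shared by the receptors of interleukins 12 and 23, had 1.6 RPM. Il1rl2 at 1.3 RPM and Il17rc at 0.7 RPM were the lowest receptor genes.

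The 4 ligand genes with a WT promoter window were all in the lowest part of the range. They were Il11 at 1.4 RPM, Il13 at 1.2, Il34 at 0.5 and Il12a at 0.3 RPM, the last with 1 window of 3 tags (0.619 to 8.77). Within 500 bp of a TSS, or at the most upstream TSS alone, the count of ligand genes was 2. Il11 has the TSS of Tmem190 within 2 kb, and Il4i1, at 1.5 RPM, those of Atf5 and Nup62, so their windows cannot be assigned to 1 gene. Il18bp had 0.6 RPM. For Il12a, Il34, Il18bp and Il17rc these were 1 or 2 windows of a peak whose highest window lay beyond 1 kb.

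**Figure D2:**
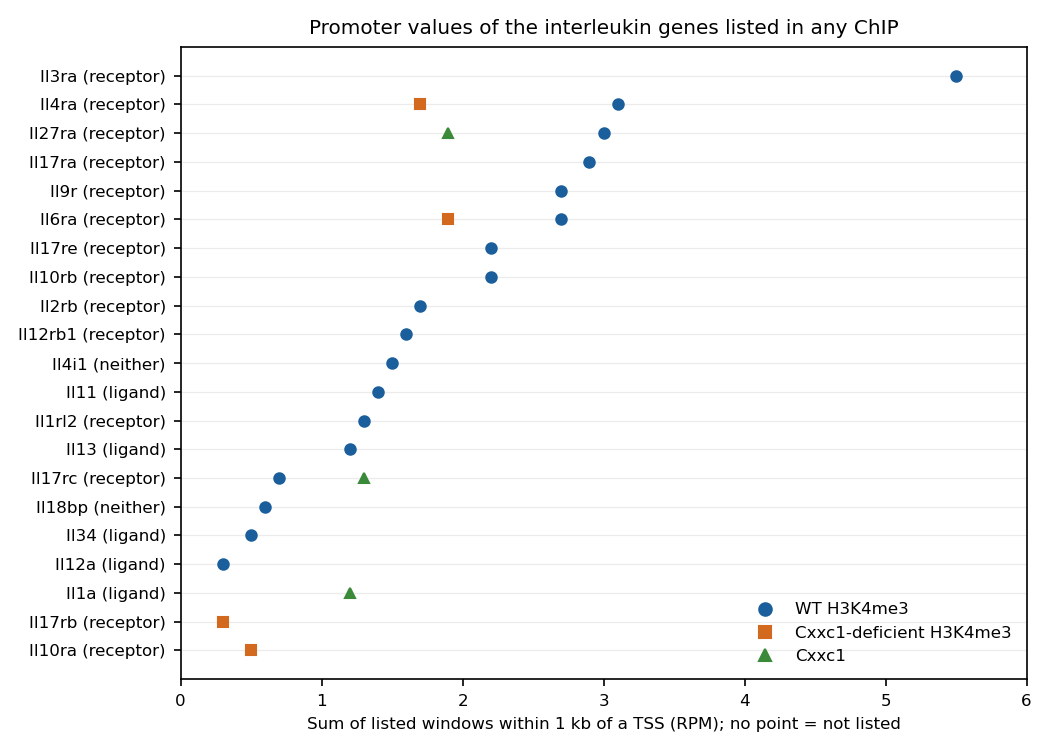
Summed RPM of listed windows within 1 kb of a TSS (x axis) for the 21 interleukin genes listed in any of the 3 lists, 1 row for each gene; a missing point means not listed. Il3ra has the highest WT value, 5.5 RPM, the Cxxc1-deficient list holds 4 receptor genes at 0.3 to 1.9 RPM, and the Cxxc1 list holds Il27ra, Il17rc and Il1a.

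Over the gene body and 10 kb upstream, Il4ra led the WT values with 17.8 RPM, followed by Il12rb1 with 13.1, Il21r with 12.3, Il11ra1 with 11.5, Il3ra with 10.4 and Il6ra with 9.3 RPM. Of these, Il21r (the interleukin-21 receptor) had no promoter window. Its 5 WT peaks all lay within the gene, with highest windows 1.49 to 29.3 kb from the nearest TSS of Il21r. Il12rb1 had 6 WT peaks, 2 of which had the TSS of Mast3 as the nearest. The 4 peaks of Il11ra1, whose region spans 79.3 kb, all lay nearest to the TSS of other genes, so its value cannot be assigned to Il11ra1. Windows in this region without a promoter window were found for 6 receptor genes (Il11ra1, Il17rb, Il20rb, Il21r, Il31ra and Il6st) and for 5 ligand genes (Il16, Il17b, Il17c, Il23a and Il25). The peaks of Il23a and Il25 lay within 0.3 kb of the TSS of Pan2 and Efs. In all, 51 WT peaks reached into the 80 genes, and for 38 of them the nearest TSS was that of an interleukin gene. Their median was 2.4 RPM, against 2.3 RPM for the whole list.

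The cytokine gene clusters held few peaks, but 50% of all genes also had no window in any list. Whether the clusters differ from this share was not tested. No window of any list lay in Il10, Il19, Il20 and Il24 on chromosome 1, in Il17a and Il17f, or in Il28a and Il28b. The Il2 and Il21 pair held 1 WT peak of 2.0 RPM, outside the extended region of either gene. The cluster from Il1f8 to Il1rn held 1 Cxxc1 peak of 1.9 RPM, and the Il1a and Il1b pair 1 of 1.6 RPM. The Il4, Il13 and Il5 cluster of type 2 cytokines held 2 WT peaks with 4.7 RPM in all, 1 of them at the Il13 promoter. The 6 genes of the interleukin-1 receptor cluster, over 467 kb of chromosome 1, held 1 WT peak, at Il1rl2, and 1 Cxxc1 peak, in Il1r2. The pair of Il4ra and Il21r, over 81.3 kb of chromosome 7, held 9 WT and 5 Cxxc1-deficient peaks. By family (textbook groups, formed after the values were seen), the ligands of the common gamma chain had no window among 6 genes, while 4 of 7 of their receptor chains had a WT window in the extended region. In the interleukin-1 family none of 9 ligand genes had a WT window, and 3 had a Cxxc1 window. In the interleukin-17 family, WT promoter windows were listed at 3 of 5 receptor and 0 of 6 ligand genes, and WT windows in the extended region at 4 of 5 and 3 of 6. In the gp130 and interleukin-12 family the counts were 3 of 9 receptor and 2 of 7 ligand genes at promoters, and 6 and 3 in the extended region. Over all genes, WT windows were listed at 32.5% of promoters and in 43.3% of extended regions, and Cxxc1 windows in 11.6% of extended regions. Differences of these small families from the shares of all genes were not tested.

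Il7r, Il2ra, Il4ra and Il6ra, receptor chains with known roles in T cells, covered the range from no window to the broadest peak of the set. To show how much CpG these promoters offer, the 150 bases before the TSS with the most WT signal are printed below, 5′ to 3′ on the gene's strand, from mm9. Capitals mark each CG, which reads the same on both strands. Il3ra and Il27ra were added after the data were seen, as the highest WT promoter value and the highest Cxxc1 value of the set. None of the 6 stretches overlaps an exon of its own gene.
Il7r, chr15:9459632-9459781, minus strand: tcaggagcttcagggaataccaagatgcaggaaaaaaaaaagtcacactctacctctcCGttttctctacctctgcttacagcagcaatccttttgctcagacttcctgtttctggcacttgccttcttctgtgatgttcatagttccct
Il2ra, chr2:11564269-11564418, plus strand: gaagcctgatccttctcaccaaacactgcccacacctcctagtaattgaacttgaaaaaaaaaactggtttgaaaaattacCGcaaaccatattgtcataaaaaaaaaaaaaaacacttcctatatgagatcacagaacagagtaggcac
Il4ra, chr7:132695635-132695784, plus strand: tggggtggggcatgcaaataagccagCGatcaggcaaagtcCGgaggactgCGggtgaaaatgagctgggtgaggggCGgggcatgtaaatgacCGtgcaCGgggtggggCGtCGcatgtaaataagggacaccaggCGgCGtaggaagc
Il6ra, chr3:89717085-89717234, minus strand: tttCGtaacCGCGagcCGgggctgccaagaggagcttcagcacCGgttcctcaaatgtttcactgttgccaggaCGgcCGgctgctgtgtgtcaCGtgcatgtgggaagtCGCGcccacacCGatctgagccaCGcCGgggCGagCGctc
Il27ra, chr8:86566489-86566638, minus strand: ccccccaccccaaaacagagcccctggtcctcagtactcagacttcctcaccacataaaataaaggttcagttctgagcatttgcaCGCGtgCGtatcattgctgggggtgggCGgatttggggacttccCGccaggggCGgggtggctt
Il3ra, chr14:15178859-15179008, plus strand: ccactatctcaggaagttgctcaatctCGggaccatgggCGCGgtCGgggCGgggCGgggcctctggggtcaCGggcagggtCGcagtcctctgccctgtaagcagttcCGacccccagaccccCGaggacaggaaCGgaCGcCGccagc
Il7r and Il2ra held 1 CG each, Il27ra 6, Il4ra 10, Il3ra 13 and Il6ra 15. The median over all genes was 6, and 87.8% of genes held at least 1. Il7r and Il2ra had no promoter window in any list and the other 4 had a WT H3K4me3 window, but Il3ra and Il27ra were shown for their windows, and the number of CG did not divide the 80 genes this way. Il12rb1, with 0 CG, and Il9r, with 1, had WT promoter windows, whereas Il1rap, with 21, and Il17rb, with 15, had none.

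Il7r (interleukin-7 receptor alpha chain; chromosome 15, 9435916 to 9459631, minus strand) was not listed in the WT, Cxxc1-deficient or Cxxc1 list, in promoter, gene body or 10 kb upstream. The nearest WT peak lay 389 kb from its TSS, near Skp2. The nearest Cxxc1-deficient peak was 707 kb away and the nearest Cxxc1 peak 540 kb.

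Il2ra (interleukin-2 receptor alpha chain; chromosome 2, 11564419 to 11614818, plus strand) was listed only in Cxxc1-deficient cells. There, 8 windows of 0.2 to 0.5 RPM formed a peak at chr2:11585001-11586800, in an intron and 20.6 kb from the TSS, with 2.7 RPM or 25 tags (16.2 to 36.9), above 84.0% of the peaks in that list. The promoter was not listed in either genotype. The nearest WT peak lay 89.2 kb from the TSS, near Rbm17. The adjacent Il15ra, a chain of the interleukin-15 receptor, was also listed only in Cxxc1-deficient cells, with 1.8 RPM in an intron.

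Il4ra (interleukin-4 receptor alpha chain; chromosome 7, 132695785 to 132722986, plus strand) had the strongest and broadest WT peak of the 80 genes, at chr7:132695401-132705800. It was 10400 bp wide and held 15.4 RPM or 145 tags (122 to 171), more than 99.9% of WT peaks, against a median width of 1600 bp in the list. A second WT peak of 2.4 RPM lay 19.3 kb into the gene. In Cxxc1-deficient cells a peak of 1800 bp and 2.0 RPM crossed the TSS and a peak of 3200 bp and 3.2 RPM followed in the gene. The promoter sum was 3.1 RPM, 29 tags (19.4 to 41.6), in WT and 1.7 RPM, 16 tags (9.15 to 26.0), in Cxxc1-deficient cells. Over the extended region it was 17.8 RPM in 49 windows and 5.2 RPM in 16 windows. Of 11 windows listed in both genotypes, WT was higher in 6, equal in 3 and lower in 2, and another 38 windows were listed in WT alone and 5 in Cxxc1-deficient cells alone. The nearest Cxxc1 peak lay 110 kb from its TSS.

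Il6ra (interleukin-6 receptor alpha chain; chromosome 3, 89673246 to 89717084, minus strand) was the only one of the 80 genes with windows in all 3 lists. The WT promoter peak, chr3:89716401-89718000, had 2.7 RPM or 25 tags (16.2 to 36.9), and the Cxxc1-deficient peak, chr3:89716601-89718000, had 1.9 RPM or 18 tags (10.7 to 28.4). These intervals overlap. WT had 2 further peaks in the gene, an intronic one of 3.0 RPM about 26.4 kb from the TSS and one of 3.6 RPM over an exon about 42.4 kb from it, and neither place was listed in Cxxc1-deficient cells. Cxxc1 had 1 peak of 1.5 RPM or 14 tags (7.65 to 23.5) in an intron, chr3:89709001-89709400, above only 14.7% of Cxxc1 peaks. This Cxxc1 peak overlapped no H3K4me3 window.

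**Figure D3:**
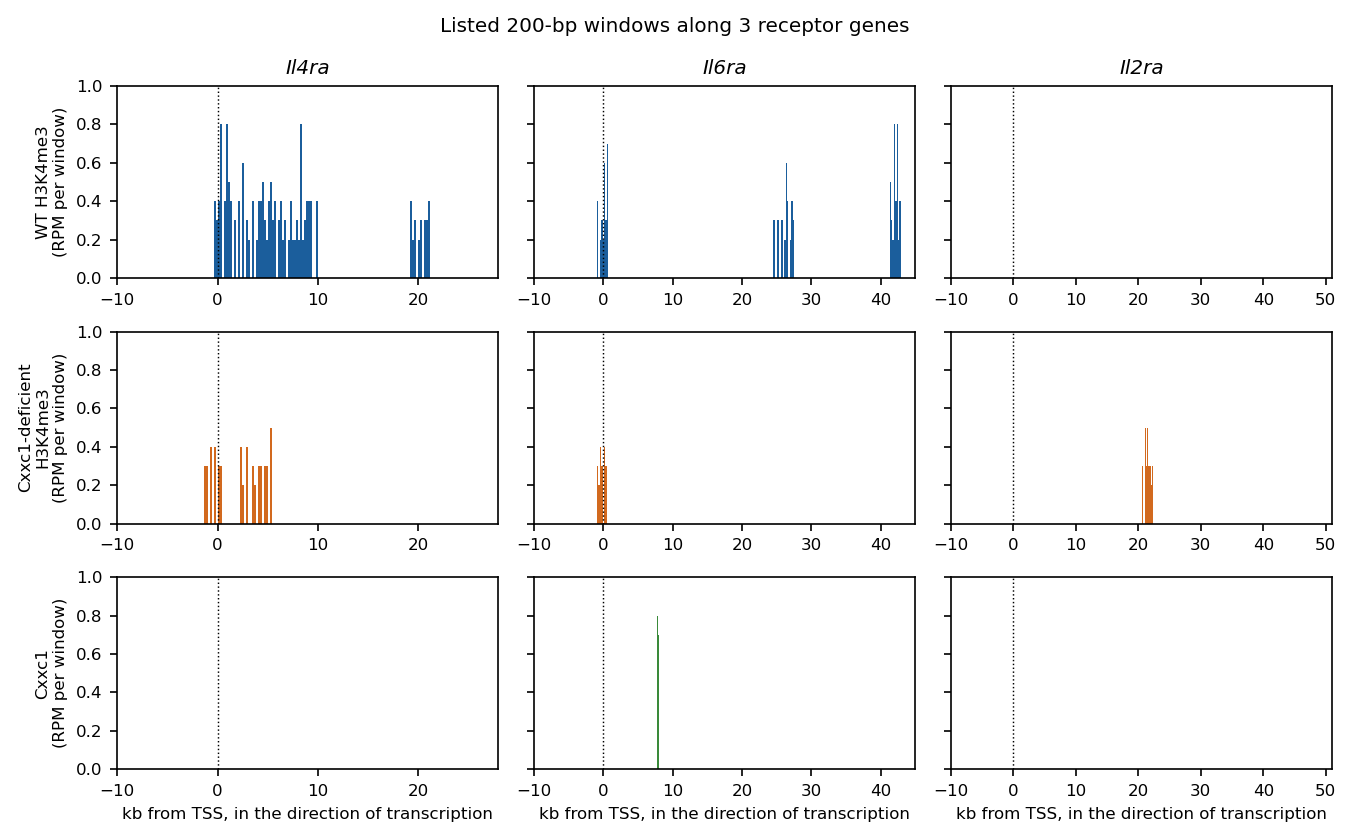
RPM of each listed 200-bp window (y axis) by its distance in kb from the TSS (x axis, positive into the gene) at Il4ra, Il6ra and Il2ra, in the WT H3K4me3, Cxxc1-deficient H3K4me3 and Cxxc1 lists from top to bottom; gaps are unlisted windows and the dotted line is the TSS. WT windows fill about 10 kb from the Il4ra TSS, Il6ra has 3 WT places of which only the promoter is listed in Cxxc1-deficient cells, and Il2ra has only a Cxxc1-deficient peak.

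Few interleukin promoters were listed in Cxxc1-deficient cells, in about the proportion of all genes. Promoter windows were listed for 4 of 80 genes (5%, 1.96 to 12.2), against 6.10% of all genes. All 4 were receptor genes: Il6ra at 1.9 RPM, Il4ra at 1.7, Il10ra at 0.5 and Il17rb at 0.3 RPM. The window of Il17rb, of 3 tags, belongs to a peak nearer to the TSS of Chdh, and within 500 bp the count was 2. Of the 18 genes with a WT promoter window, Il4ra and Il6ra, 11.1% (3.10 to 32.8), also had a Cxxc1-deficient one, against 12.8% of all genes with a WT window. A Cxxc1-deficient promoter window without a WT one was found for Il10ra and Il17rb, 2.5% of 80 genes, against 1.96% of all genes. Thus Il3ra, Il27ra, Il17ra and Il9r, with 2.7 to 5.5 RPM in WT, had no promoter window in Cxxc1-deficient cells.

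Over the extended region, 11 of 80 genes had a Cxxc1-deficient window (13.8%, 7.85 to 23.0), against 11.4% of all genes. These were 9 receptor and 2 ligand genes. Il4ra led with 5.2 RPM, followed by Il2ra at 2.7 and Il10ra at 2.4 RPM. The ligand genes were Il17b at 2.0 RPM, upstream of the gene and with a WT peak of 1.5 RPM at the same place, and Il16 at 1.8 RPM, in an intron and apart from its WT peak of 3.5 RPM. Among the 29 genes with a WT window, 7 (24.1%, 12.2 to 42.1) also had a Cxxc1-deficient one, against 20.4% of all such genes. Il2ra, Il10ra, Il15ra and Il1rap were listed in Cxxc1-deficient cells and not in WT, which is 5% of 80 genes (1.96 to 12.2) against 2.60% of all genes. All 4 are receptor genes, 10.8% of 37 (4.29 to 24.7), against 0 of 40 ligand genes (0 to 8.76). These intervals overlap, and receptor genes had longer regions, with a median of 39.1 kb against 16.5 kb for ligand genes. Their peaks lay in introns, 1.73 kb from the TSS in Il10ra (interleukin-10 receptor alpha chain) and 13.4 to 62.1 kb from it in the other 3, and held 1.5 to 2.7 RPM, or 14 to 25 tags. Over the 80 genes, 24 windows appeared in both H3K4me3 lists, at a mean of 0.425 RPM for WT against 0.333 RPM for Cxxc1-deficient cells. WT was higher in 12 of these, equal in 7 and lower in 5, and 16 of the 24 lay in Il4ra or Il6ra. Over all genes the same means were 0.418 and 0.367 RPM in 3991 windows, with WT higher in 1886, equal in 902 and lower in 1203.

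**Figure D4:**
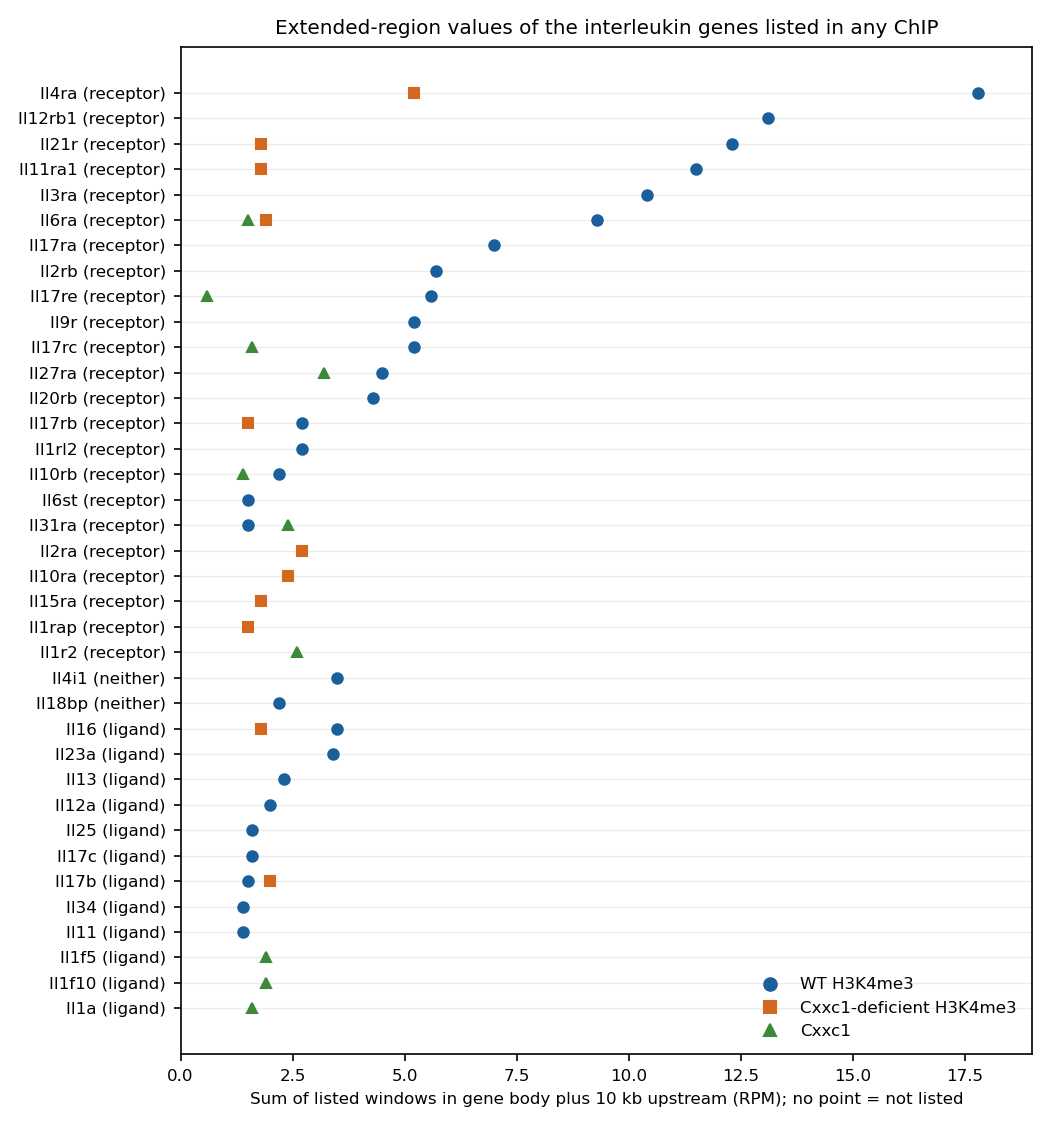
Summed RPM of listed windows in the gene body plus 10 kb upstream (x axis) for the 37 interleukin genes listed in any list, ligand genes below and receptor genes above; a missing point means not listed. Il4ra has the highest WT and Cxxc1-deficient values, 17.8 and 5.2 RPM, 4 receptor genes (Il2ra, Il10ra, Il15ra and Il1rap) have only a Cxxc1-deficient value, and no ligand gene exceeds 3.5 RPM.

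Cxxc1 was listed within 1 kb of a TSS at 3 of 80 genes (3.75%, 1.28 to 10.5), against 2.03% of all genes. At Il27ra (interleukin-27 receptor alpha chain) the Cxxc1 peak, chr8:86566001-86569200, was the strongest of the set, with 3.2 RPM or 29 tags (19.4 to 41.6), more than 97.4% of Cxxc1 peaks. It overlapped the WT H3K4me3 peak chr8:86565601-86567600, which held 3.0 RPM, and this promoter was not listed in Cxxc1-deficient cells. At Il17rc, a receptor chain for interleukin-17, the Cxxc1 peak of 1.6 RPM overlapped a WT H3K4me3 peak of 2.8 RPM. Il1a, the gene of interleukin-1 alpha, had a Cxxc1 peak of 1.6 RPM about 1.0 kb into the gene and no H3K4me3 window. The Cxxc1 peaks of Il17rc and Il1a each stood above only 27.2% of Cxxc1 peaks. Thus 2 of 80 genes (2.5%, 0.688 to 8.66) had both Cxxc1 and WT H3K4me3 promoter windows, against 0.934% of all genes, which lies inside this interval.

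In the extended region Cxxc1 was listed at 10 of 80 genes (12.5%, 6.93 to 21.5), against 11.6% of all genes. These were 7 of 37 receptor genes (18.9%, 9.48 to 34.2), namely Il27ra, Il17rc, Il1r2, Il31ra, Il6ra, Il10rb and Il17re, and 3 of 40 ligand genes (7.5%, 2.58 to 19.9), namely Il1a, Il1f5 and Il1f10. The intervals of receptor and ligand genes overlap, and the receptor regions were longer, with a median of 39.1 kb against 16.5 kb. The 10 genes shared 8 peaks. Il1f5 and Il1f10 had the same peak, in an exon of Il1f5, and the peak at Il17re is the one at the Il17rc promoter. Il1r2, a decoy receptor for interleukin-1, had 2.6 RPM in an intron 23.5 kb from its TSS and no H3K4me3 window. Il31ra had 2.4 RPM and Il10rb 1.4 RPM, both in introns, above 86.3% and 5.24% of Cxxc1 peaks. Only at Il27ra and at the Il17re and Il17rc pair did a Cxxc1 peak overlap an H3K4me3 peak. WT H3K4me3 windows in the same extended region were listed for 6 of the 10 genes, 7.5% of 80, against 7.03% of all genes. All 6 were receptor genes. A WT promoter window was listed for 5 of the 10 genes with Cxxc1 (50%, 23.7 to 76.3) and for 13 of the 70 without (18.6%, 11.2 to 29.2). The same shares over all genes were 43.9% and 31.0%. Of the 5, 2 carried their Cxxc1 windows at the promoter itself. None of the 10 genes but Il6ra was listed in Cxxc1-deficient H3K4me3.

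The promoters of these genes were poor in CpG. With a CpG-rich promoter taken as 1 with 55% GC or more, and an observed over expected CpG ratio from 0.65 up, within 500 bp of the TSS with most WT signal, 7 of 80 genes had one (8.75%, 4.30 to 17.0), against 36.7% of all genes. They were Il17d among the ligand genes and Il3ra, Il6ra, Il17ra, Il17rd, Il1rap and Il28ra among the receptor genes. The median ratio was 0.21 for ligand genes, 0.32 for receptor genes and 0.57 for all genes. Il17ra had the highest ratio of the receptor genes, 0.93, and Il7r, at 0.11, was among the lowest. Among promoters that were not CpG-rich, WT windows were listed for 15 of 73 interleukin genes (20.5%, 12.9 to 31.2) and for 17.9% of all genes. Within this class the shares were 29.0% (16.1 to 46.6) for receptor genes and 10.3% (4.06 to 23.6) for ligand genes. Among CpG-rich promoters they were 3 of 7 interleukin genes (Il3ra, Il17ra and Il6ra) and 57.6% of all genes.

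**Figure D5:**
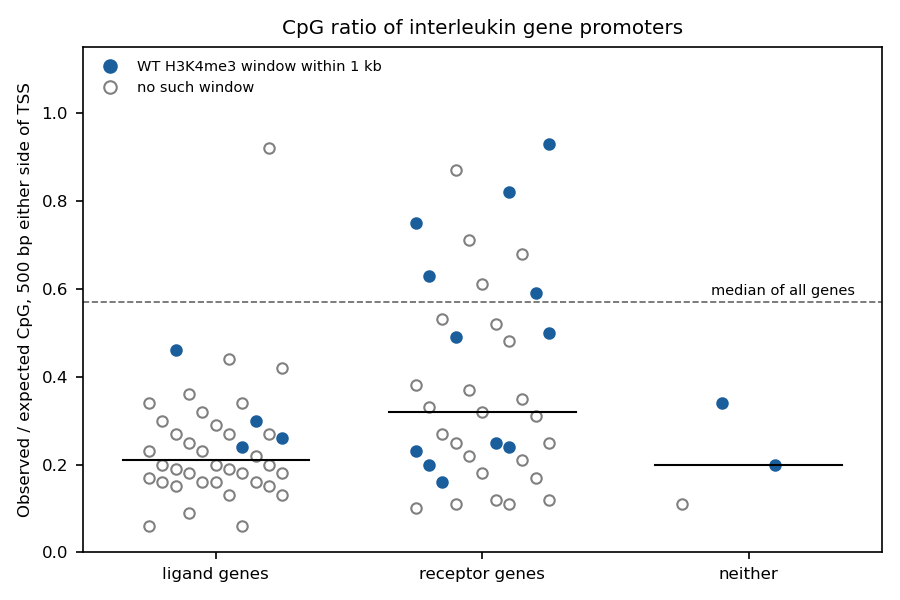
Observed to expected CpG ratio within 500 bp of the TSS (y axis) for 40 ligand genes, 37 receptor genes and 3 genes of neither class; each circle is a gene, filled where a WT H3K4me3 window lies within 1 kb of a TSS, black lines are class medians (0.21, 0.32 and 0.20) and the dashed line is the median of all genes, 0.57. Filled circles lie at low as well as high ratios.

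Genes that act with the interleukins were counted in the same lists, where 32.5% of all genes had a WT, 6.10% a Cxxc1-deficient and 2.03% a Cxxc1 promoter window. Of 16 autosomal signalling genes (Jak, Stat, Irak, Myd88 and Traf6), 11 had a WT promoter window, with up to 4.8 RPM at Stat5b, which acts downstream of interleukins 2 and 7. Jak1 had 1.9 RPM, and Jak3, the kinase of the common gamma chain, had 2.3 RPM. In Cxxc1-deficient cells only Irak2 of the 16 had a promoter window, of 1.0 RPM, against 3.0 RPM in WT. Of 13 partner chains and related cytokines, 4 had a WT promoter window, namely Osm and Clcf1 at 3.3 RPM, Lif at 1.6 and Csf2ra at 1.2 RPM. Of these 13, Crlf2, a chain of the thymic stromal lymphopoietin receptor, had a promoter window only in Cxxc1-deficient cells, at 1.2 RPM. Tyk2, Stat4, Stat5a, Irak3 and Traf6 had no WT promoter window. None of these 29 genes had a Cxxc1 promoter window, a count too small to set apart from the background.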

How the data were processed

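Cxxc1 and H3K4me3 ChIP-seq came from DP thymocytes. Per the study's methods, reads were mapped to mm9 and enriched islands were called with SICER 1.1 (CASAVA 1.8.2 is also named in the processing notes). The study names the Cxxc1-deficient ChIP and input as controls for the Cxxc1 peaks. Which controls served each H3K4me3 list is not stated. A control from Cxxc1-deficient cells for the WT list could remove places marked in both genotypes. How far this affects comparisons of WT with Cxxc1-deficient H3K4me3 was not tested. The aligner and the treatment of duplicates are not given in the sources used here, and either can change which windows are listed. The authors deposited RPM values at 1 decimal for 200-bp windows inside called islands. Input and the Cxxc1 ChIP of deficient cells were not analysed here.

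Genes were protein-coding transcripts of GENCODE vM1 on NCBIM37, the assembly of mm9. A window counted when it shared at least 1 bp with the region: 1 kb either side of any TSS, or the gene body plus 10 kb upstream. RPM was summed over windows, and tags were inferred from the step between values. Named genes were Il7r, Il2ra, Il4ra and Il6ra, each gene with a promoter window in any list and each with a Cxxc1 peak in the extended region. Others were counted, and any other gene named was chosen after its values were seen. The members and lists were chosen with earlier results of these data known. Functions were tested on simulated data (Python 3.11.15, numpy 2.4.6, scipy 1.17.1, matplotlib 3.10.9). Alternatives were promoters of 500 bp and 2 kb, the most upstream TSS, other upstream limits, the stronger 50% of peaks and removal of shared promoters.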

Additional observations from a re-analysis of the deposited data

How the results depend on the processing

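Of 68 alternative values for 14 results, 54 stayed within 1.5 times the count, or within the interval of the median, and 14 moved. The median WT promoter value of 1.65 RPM (interval 1.2 to 2.7) was 1.6 RPM within 500 bp, 2.5 RPM within 2 kb and 2.65 RPM over whole peaks. No paired analysis was possible because there was only 1 library per group. Keeping the stronger 50% of each list, which removes peaks by construction, left 11 genes with a WT promoter window, 1 with a Cxxc1-deficient one, 1 with a Cxxc1 one and 0 with H3K4me3 in both genotypes, and 1 ligand gene with a WT promoter window. Over all genes it left 20.8% with a WT, 3.49% with a Cxxc1-deficient and 1.29% with a Cxxc1 promoter window. In the extended region it left 17 genes with WT, 4 with Cxxc1-deficient and 5 with Cxxc1 windows, 3 ligand genes with WT and 3 receptor genes with Cxxc1 windows, against 28.1%, 6.44% and 6.64% of all genes with WT, Cxxc1-deficient and Cxxc1 windows. A promoter of 500 bp left 2 genes in the Cxxc1-deficient list and 2 ligand genes in WT, the most upstream TSS alone left 2 ligand genes in WT, and the gene body alone left 3 ligand genes in WT, each over a smaller region by construction. Peaks of members held 1.3 to 15.4 RPM in WT, and at about 9 M tags a place with fewer tags than a called island has no value.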
